A study of Mus musculus with 2 samples.

Results

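The chromatin of 10 genes that characterise the hepatocyte, Alb, Afp, Apoa1, Apoa2, Apob, Ttr, Serpina1a, Fgb, Tat and Cps1, was examined in cells of another lineage, cardiac progenitor cells (CPCs). Regions of open chromatin had been mapped by ATAC-seq, in which the transposase Tn5 cuts accessible DNA and attaches sequencing adapters. A gene was credited with every distinct interval of the deposited peak list that carried its symbol, and a gene named on no interval counted as 0. In all, 4 of the 10 liver genes carried a peak (Alb, Apoa1, Apob and Ttr), with 5 of the 26232 distinct peaks between them. The other 6 genes carried none.

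The CPCs came from the mouse ES cell line E14 Tg(Nkx2-5-EmGFP), which expresses EmGFP under control of the early cardiac gene Nkx2-5, and the labels give the strain as C57BL/6. They were differentiated with BMP4, Activin A and growth factors and collected at day 5, and no sort on EmGFP is described for these libraries. The study's methods also give a hanging-drop route with a sort for GFP at day 5. Their ATAC-seq section does not name the route. There were 2 replicates of 1 group with no knockdown, and the list holds peaks found in both, so the values below carry no replicate error and no test over samples. The Isl1 knockdown cells named in the series' design are not analysed here.

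Hepatocytes secrete most plasma proteins, build lipoproteins around apolipoproteins, and degrade amino acids and detoxify ammonia. Transcription of these genes is known to depend on liver-enriched factors, among them HNF1, HNF4, FOXA and C/EBP proteins, that bind promoters and distal enhancers. Several of the genes, Afp, Ttr and the apolipoproteins among them, are also made by the visceral endoderm of the early embryo and yolk sac. Heart and liver progenitors arise next to each other in the embryo, from mesoderm and endoderm respectively.

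The promoters of Alb, which encodes serum albumin, and of its fetal relative Afp, which encodes alpha-fetoprotein, are shown first because they hold matches to motifs of liver factors and yet lay under no peak. Each RefSeq promoter window of 300 bases (250 before the start and 50 after it) is written 5′ to 3′ on the strand of the gene. Capitals mark matches to an HNF1 motif (GTTAATNAT), a C/EBP motif (TTGCNNAA), both searched on both strands, and a TATA box (TATAAA, on the strand of the gene). The windows match mm9 exactly and at 1 place each, chr5:90889646-90889945 and chr5:90919490-90919789, both on the plus strand.
Alb promoter: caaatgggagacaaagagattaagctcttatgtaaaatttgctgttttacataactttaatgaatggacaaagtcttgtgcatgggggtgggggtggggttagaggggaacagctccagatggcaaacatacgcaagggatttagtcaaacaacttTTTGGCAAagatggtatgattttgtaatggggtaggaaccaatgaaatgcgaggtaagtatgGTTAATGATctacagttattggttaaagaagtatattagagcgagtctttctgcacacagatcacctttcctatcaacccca
Afp promoter: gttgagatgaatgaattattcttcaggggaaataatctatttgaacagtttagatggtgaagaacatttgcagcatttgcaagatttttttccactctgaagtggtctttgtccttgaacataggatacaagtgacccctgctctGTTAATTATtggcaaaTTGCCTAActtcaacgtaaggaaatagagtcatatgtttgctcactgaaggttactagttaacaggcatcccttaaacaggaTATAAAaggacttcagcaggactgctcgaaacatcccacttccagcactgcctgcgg

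In Alb the HNF1 match began 32 bases and the C/EBP match 94 bases before the start. In Afp they began 105 and 89 bases before it, with a TATA box 7 bases before it. A match is a description of the letters and does not show that a factor binds.

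A closer contrast is given by Fgb, the gene of the fibrinogen beta chain, and its neighbour Plrg1, which encodes a component of the spliceosome. They face away from each other on opposite strands, and a peak of 1278 bp covered the Plrg1 start and ended 5240 bp from the Fgb start. The Fgb window (chr3:82853736-82854035, minus strand, mm9) held 5 CpG and 46.3% GC, and the Plrg1 window (chr3:82859210-82859509, plus strand) held 35 CpG and 68.7% GC. Capitals mark a C/EBP match in Fgb and each CpG in Plrg1.
Fgb promoter: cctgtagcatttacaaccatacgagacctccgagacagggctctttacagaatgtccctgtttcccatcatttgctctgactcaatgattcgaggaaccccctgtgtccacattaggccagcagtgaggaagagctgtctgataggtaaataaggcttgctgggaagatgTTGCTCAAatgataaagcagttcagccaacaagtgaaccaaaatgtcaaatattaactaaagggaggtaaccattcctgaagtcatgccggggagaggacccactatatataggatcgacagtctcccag
Plrg1 promoter: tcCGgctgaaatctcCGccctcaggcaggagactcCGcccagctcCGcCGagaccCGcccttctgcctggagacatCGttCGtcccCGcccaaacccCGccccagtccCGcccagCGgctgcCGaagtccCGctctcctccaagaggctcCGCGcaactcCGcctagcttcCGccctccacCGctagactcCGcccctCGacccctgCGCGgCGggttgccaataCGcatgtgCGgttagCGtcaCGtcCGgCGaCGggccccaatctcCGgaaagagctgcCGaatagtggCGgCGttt

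Apoa1, which encodes the main protein of high density lipoprotein, had its peak inside the gene. The middle 150 bases of that peak (chr9:46038134-46038283, mm9, plus strand) are shown because the peak centre lies in coding sequence, with each CpG in capitals, 13 in all.
Apoa1 peak: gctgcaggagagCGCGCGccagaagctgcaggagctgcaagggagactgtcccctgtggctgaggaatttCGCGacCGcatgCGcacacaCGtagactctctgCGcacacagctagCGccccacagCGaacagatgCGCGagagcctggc

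**Figure D1:**
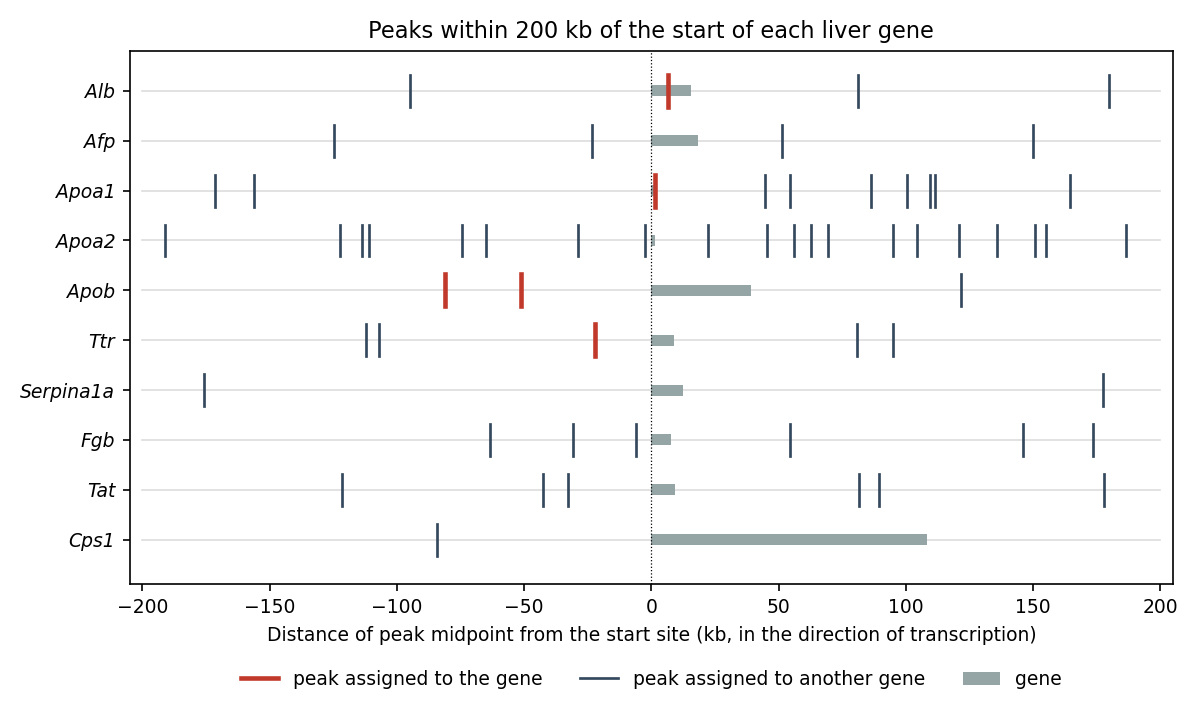
Peaks within 200 kb of the start of each liver gene, with the distance of the peak midpoint from the start in kb along the direction of transcription; red lines are peaks assigned to the gene, dark lines are peaks assigned to other genes, and grey bars are the genes. No line stands on a start, and the number of peaks in the window ran from 1 around Cps1 to 20 around Apoa2.

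The number of liver genes with a peak was set beside the genome as a whole. Of 21900 protein coding RefSeq genes, 62.5% carried at least 1 assigned peak, against 4 of the 10 liver genes (40%). The difference was not tested. The 62.5% was not split by the CpG content of promoters, which was low in all 10 liver genes, as set out below. Assignment to the nearest start depends on gene spacing, so the peaks within 200 kb of each start were also counted whatever their symbol. The median was 4.5 around the liver genes and 7 around all protein coding genes. The latter include starts that lie under a peak, whereas no liver gene start did, so the sets are unlike.

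No peak lay over the promoter of any of the 10 liver genes, where the promoter is the 1 kb centred on the 5′-most protein coding start in GENCODE. Over all 22367 protein coding genes, 53.6% of promoters overlapped a peak. That share depended strongly on CpG content. It was 89.4% for the 9969 CpG-rich promoters (observed over expected CpG of at least 0.6 and GC of at least 50%) and 24.7% for the 12398 CpG-poor ones. All 10 liver promoters were CpG-poor, with CpG ratios from 0.144 (Serpina1a) to 0.397 (Afp) and a median of 0.245, against a median of 0.553 over all promoters. Among the 5816 promoters within that range of CpG ratios, 758 (13%) overlapped a peak. A count of 0 of 10 is therefore close to what promoters of this composition showed in general, and nothing particular to liver genes is read from it.

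**Figure D2:**
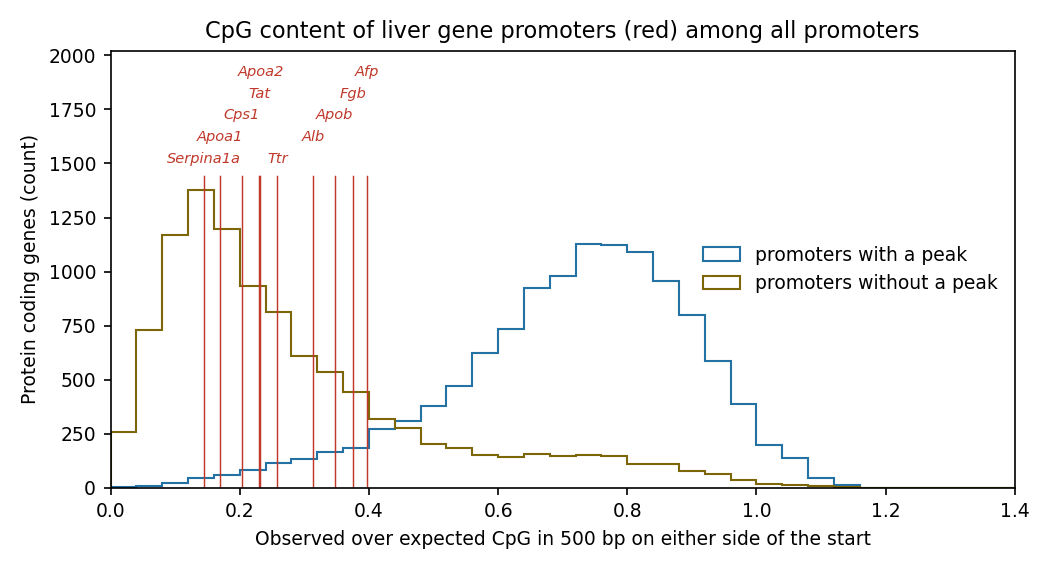
Observed over expected CpG (horizontal axis) and number of protein coding genes (vertical axis) for promoters with a peak (blue) and without a peak (brown), with each liver gene as a red line. The liver genes lie between 0.144 and 0.397, where promoters without a peak outnumber those with a peak.

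Distance gave a like picture. From the starts of the liver genes to the edge of the nearest peak of any gene the median was 22365 bp, ranging from 982 bp at Apoa1 to 175563 bp at Serpina1a. The 10790 protein coding starts that no peak covered had a median of 28412 bp. The stretch without a peak around the start had a median of 108 kb for the liver genes and 143 kb for the 10744 of those starts with a peak on both sides. With peaks wider than the median of all peaks alone, the median distance to the nearest was 65338 bp for the liver genes and 65140 bp for the 13389 starts then uncovered. A peak within the gene or 10 kb of it was found at 4 of the 10 (Alb, Apoa1, Apoa2 and Fgb), against 71.4% of all protein coding genes. At Apoa2 and Fgb that peak covered the promoter of the neighbouring gene. Like the 62.5% of genes with an assigned peak, the 71.4% was not split by CpG content.

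**Figure D3:**
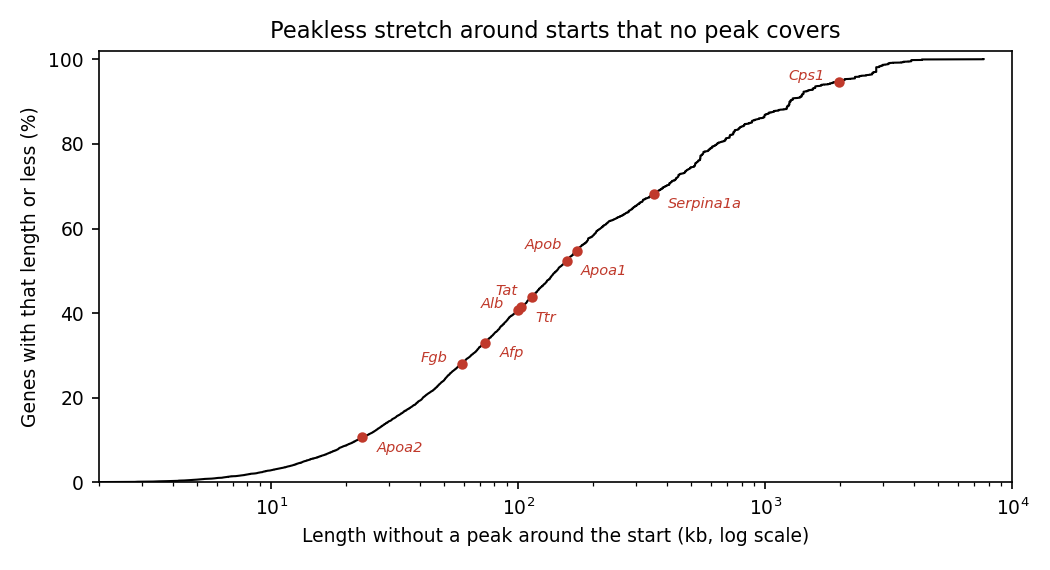
Length without a peak around the start (kb, log scale) for the 10744 protein coding starts that no peak covers and that have a peak on both sides, as the cumulative percentage of these genes (line), with the liver genes as red points. Apoa2 has the shortest stretch of the 10 at 23.4 kb and Cps1 the longest at 1993 kb.

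Among the plasma proteins, Alb and Afp lie side by side and differed in whether a peak was assigned. Alb (chr5:90889915-90905629, plus strand) carried 1 peak of 711 bp at chr5:90896229-90896939, and the deposited distance of its midpoint from the start was 6687 bp. The peak was inside the gene, with 581 bp of intron and 130 bp of coding exon. It held 1 C/EBP match, and how often other peaks hold one was not counted. It was narrow, since only 13.1% of all peaks and 14.7% of peaks 1 to 10 kb from a start were narrower. Afp (chr5:90919740-90937933, plus strand) had no peak of its own, and the nearest, at 22801 bp, was that same Alb peak. Downstream the next peak lay 50599 bp away and carried the symbol 5830473C10Rik, and the intervening stretch also held the start of Afm, the gene of the related plasma protein afamin. Upstream of Alb the next peak, 2358 bp wide, covered the CpG-rich promoter of Ankrd17 and the start of Gm9958.

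Fgb (chr3:82846169-82853725, minus strand) shared a peakless stretch of 59.2 kb with Fga and Fgg, the genes of the other fibrinogen chains, and none of the 3 promoters lay under a peak. The peak at its far end, 53997 bp downstream of the Fgb start, was assigned to Fgg at a deposited distance of -12274 bp and was 712 bp wide. Serpina1a (chr12:105091799-105104137, minus strand) encodes an alpha-1-antitrypsin, the main inhibitor of neutrophil elastase in plasma. It lay in a stretch of 353 kb without a peak that held 8 protein coding starts, all of Serpina genes (Serpina1f, Serpina1b, Serpina1d, Serpina1a, Serpina1c, Serpina1e, Serpina11 and Serpina9). The flanking peaks carried the symbols Serpina12 and Serpina1f. The copies Serpina1a to Serpina1e are closely similar, and 36.2% of the 32-base words of the Serpina1a promoter occur elsewhere in the genome, so reads there may not map uniquely. The Afp promoter had 14.6% of such repeated words, Tat had 2.89%, and the remaining 7 genes had 0.

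For the apolipoproteins, the pattern was a peak at or near the gene in Apoa1, distant peaks in Apob, and none assigned in Apoa2. Apoa1 (chr9:46036663-46038549, plus strand) carried a peak of 1127 bp at chr9:46037645-46038771, and the deposited distance was 1494 bp. It covered 595 bp of coding sequence, 67 bp of UTR, 243 bp of intron and 222 bp past the end of the gene, and began 982 bp after the start. The whole peak held 45 CpG and 56.6% GC, and its width was close to the median of all peaks, 1081 bp, with 54% of them narrower. Apoc3, Apoa4 and Apoa5, the apolipoprotein genes that follow Apoa1 on the chromosome, had no peak over the promoter, and upstream of Apoa1 the next peak, assigned to Sik3, left a stretch of 157 kb without a peak around the start.

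Apoa2 (chr1:173155185-173156510, plus strand) encodes another protein of high density lipoprotein. The nearest peak, 1857 bp upstream and 1350 bp wide, covered the promoter of Tomm40l, which is read in the opposite direction, and the next peak downstream lay 21494 bp away. RefSeq lists a further Apoa2 start upstream, and the same Tomm40l peak lay 284 bp from it. A promoter of 500 bp on either side of that start would thus overlap a peak, 1 of the 8 liver genes that could be examined by RefSeq starts.

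Apob (chr12:7984454-8023641, plus strand), the gene of the structural protein of low density lipoprotein, carried 2 peaks, both intergenic and upstream. The farther, at chr12:7902856-7904002, was 1147 bp wide with a deposited distance of -81055 bp, and 78.7% of peaks 50 to 100 kb from a start were narrower. The nearer, at chr12:7932840-7933296 with a deposited distance of -51416 bp, was 457 bp wide, and only 0.511% of all peaks were narrower. Among the 32-base words of the farther peak 21.9% occur elsewhere in the genome, and among those of the nearer 7.04% do. These shares count exact words only and do not rank the peaks by other kinds of repeat. The part of repeated sequence in these peaks was not tested. No peak lay within the 39188 bp of the gene itself. Downstream the next, of 666 bp, was 121344 bp from the start and was assigned to Ldah at a deposited distance of -108783 bp. Its midpoint lay 121676 bp from the 5′-most Apob start, farther than from the Ldah start. Assignment to the nearest protein coding start in GENCODE, where Apob has 3, credited it to Apob instead.

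Both amino acid and ammonia enzymes lacked an assigned peak. Tat (chr8:112514337-112523703, plus strand) encodes tyrosine aminotransferase, which begins tyrosine breakdown and is switched on around birth. Its nearest peak was 32145 bp upstream, assigned to Marveld3, and the stretch of 113 kb without a peak also held the starts of Marveld3 and Chst4. Cps1 (chr1:67169600-67277833, plus strand) encodes carbamoyl phosphate synthetase, the entry step of the urea cycle. It lay in the longest stretch of the 10, 1993 kb, with no other protein coding start in it, and 2.59% of all protein coding genes had a longer one. The flanking peaks were those over the Lancl1 promoter, 83766 bp upstream, and a peak assigned to Erbb4, 1908755 bp downstream.

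Ttr encodes transthyretin, the carrier of thyroxine and of retinol binding protein, and is made in liver, choroid plexus and visceral endoderm. It lies at chr18:20823751-20832825 on the plus strand and carried 1 peak of 507 bp at chr18:20801316-20801822, with a deposited distance of -22183 bp. The peak lay in an intron of the noncoding gene Gm16090 and was narrow, with 1.52% of all peaks and 2.74% of peaks 10 to 50 kb from a start narrower. Downstream the next peak, 80077 bp away, covered the promoter of B4galt6. Upstream of Ttr the next gene, Dsg2, which encodes a desmosomal cadherin of heart and epithelia, had a promoter peak of 1014 bp.

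**Figure D4:**
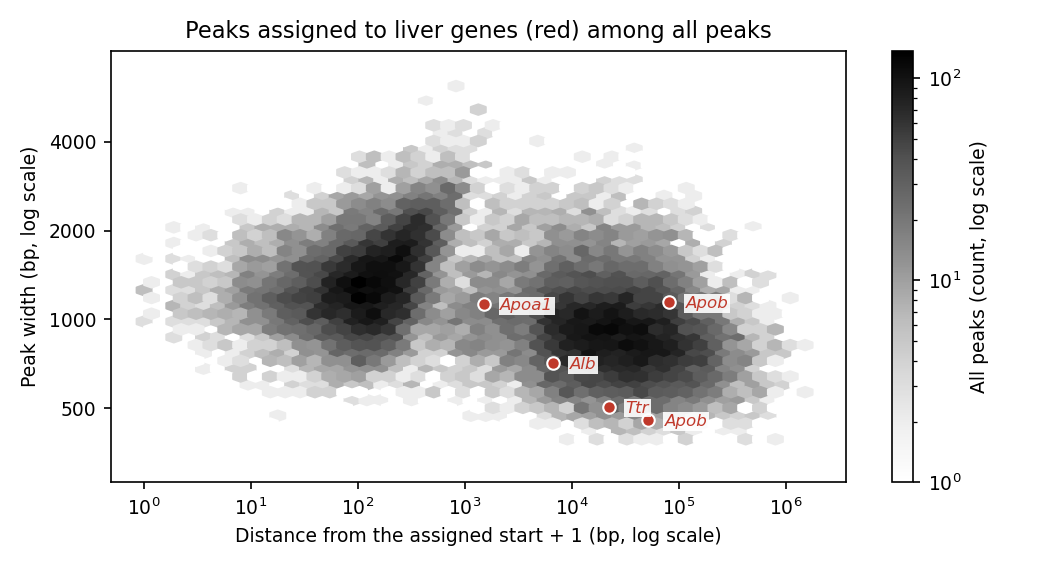
Width in bp (vertical, log scale) against distance from the assigned start in bp (horizontal, log scale, with 1 added) for all 26232 peaks, shaded by their number, and for the 5 peaks of liver genes (red). No liver gene peak stands within 1 kb of a start, and 3 of the 5 are narrower than the median of all peaks, 1081 bp.

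As a set, the 5 peaks had a median width of 711 bp (457 to 1147 bp) and covered 3949 bp. None lay within 1 kb of its start, where 44.9% of all peaks lie with a median width of 1326 bp, 2 lay within 10 kb and 3 beyond 20 kb. Their median GC content was 44.4%, against 54.5% over all peaks. Median widths of all peaks were 1014 bp at 1 to 10 kb, 912 bp at 10 to 50 kb and 873 bp at 50 to 100 kb from a start. Against its own class of distance, 2 of the peaks (Apoa1 and the farther Apob peak) were wider than the median and 3 were narrower. Whether a peak reflects weak opening in every cell or opening in few cells cannot be told apart in these pooled cells.

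Around the liver genes, promoters again divided by CpG content. The nearest 3 protein coding genes on either side gave 54 distinct neighbours that are not among the 10. Of these, 20 of 24 with a CpG-rich promoter had a peak over it, as did 6 of 30 with a CpG-poor promoter. Plrg1 next to Fgb, Lancl1 next to Cps1 and Sik3 next to Apoa1 were among the former, and Tomm40l next to Apoa2 (CpG ratio 0.402) was among the latter. Counting only the adjacent gene on each side, and leaving out Alb and Afp as neighbours of each other, 7 of 18 had a promoter peak.

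Matches to each motif were also counted over the liver promoters. Of the 10 genes, 8 were in the RefSeq promoter table, with 9 windows, and Ttr and Cps1 were not searched. A C/EBP match stood in 6 of the 8 (Alb, Afp, Apoa2, Apob, Serpina1a and Fgb), against 10.8% of all 32851 windows. The HNF1 motif matched in Alb and Afp, 2 of 8 against 0.801%. A FOXA motif (TGTTTAC) matched in Apoa2 alone against 3.65%, a GATA motif (AGATAA) in Tat alone against 11.2%, and an HNF4 motif (CAAAGTCCA) in none against 0.475%, each searched on both strands. TATAAA on the strand of the gene stood in 3 (Afp, Apoa2 and Apob) against 8.32%. None of these 9 windows overlapped a peak. The liver counts are of genes, with Apoa2 counted if any of its windows matched, while the percentages are of single windows. The windows behind the percentages were not matched to the liver promoters for base composition.

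The other genes of the liver were counted from lists chosen from general knowledge. Of 42 further effectors (plasma proteins, apolipoproteins, enzymes), 15 carried a peak (35.7%), with 27 peaks, beside 62.5% of all protein coding genes. A promoter peak was found at 6 of the 42 (14.3%, beside 53.6% of all promoters): Apoe and Rbp4, carriers of lipid and retinol, Apoh, whose peak carried the symbol Prkca, and the enzyme genes Fah, Ass1 and Asl. CpG-poor promoters with a peak numbered 4 of 39 in this list, beside 24.7% of all CpG-poor promoters. Of the 5816 promoters with CpG ratios from 0.144 to 0.397, the range of the liver genes, 13% had a peak. The CpG-poor promoters of this list ran from 0.0434 (Otc) to 0.565 (Ass1) and were not matched to other promoters by CpG ratio. A shortage of peaks particular to liver effectors is therefore not read from the count. Dlk1, a Notch-related protein of hepatoblasts that many embryonic tissues also make, had 5 peaks, Ass1, of the urea cycle, had 4, and Gc, the vitamin D binding protein, had 3.

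Transcription factors that act in the liver were the next list. Of 24 such regulators 16 carried a peak (66.7%), with 39 peaks, beside 62.5% of all protein coding genes. A promoter peak was found at 12 (50%), beside 53.6% of all promoters. The first count depends on how peaks are credited. Counting any peak in the gene or within 10 kb, whatever its symbol, gave 22 of 24, beside 71.4% of all protein coding genes. CpG-rich promoters had a peak in 9 of 11 and CpG-poor ones in 3 of 13. Foxa2, a pioneer factor of endoderm, carried 7 peaks, Zfhx3 carried 5 and Rxra 4. Promoter peaks were also present at Cebpa (2081 bp), Prox1 (2539 bp), Onecut1 (1423 bp), Cebpb, Onecut2, Ppara, Tbx3 and Xbp1, and at Foxa3 under a peak assigned to Sympk. Hhex had a peak of 2206 bp at a deposited distance of 52 bp, which lay 904 bp from the GENCODE start used here. Hnf4a and Foxa1 had none, with nearest peaks at 11965 and 29713 bp. Many of these factors also act outside the liver, Tbx3 and Prox1 in the heart among them.

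**Figure D5:**
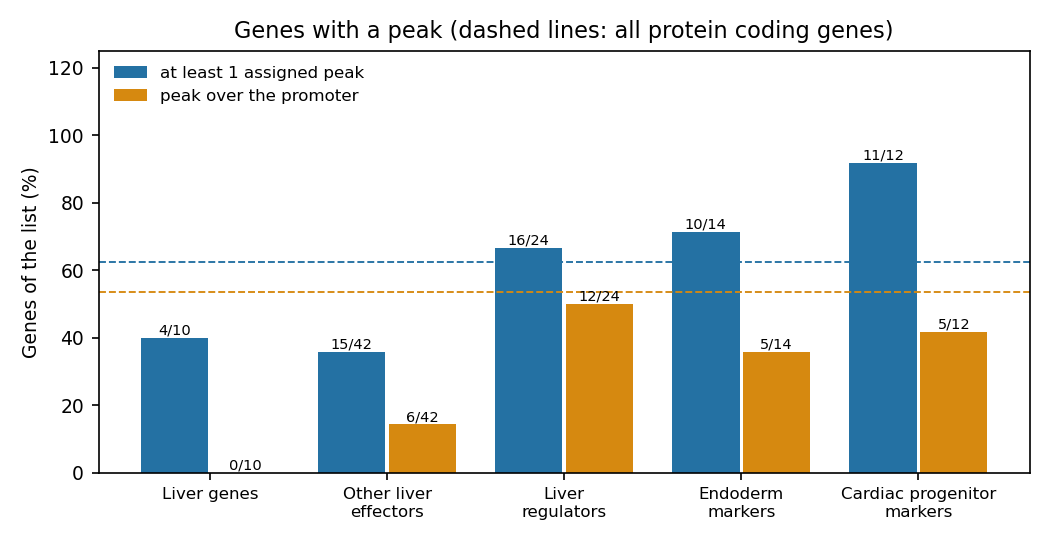
Percentage of the genes of each list with at least 1 assigned peak (blue bars) and with a peak over the promoter (orange bars), with counts above the bars and the shares of all protein coding genes, 62.5% and 53.6%, as dashed lines of the same colours. Liver genes have 4 of 10 and 0 of 10, and cardiac progenitor markers 11 of 12 and 5 of 12.

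The labelled cell type was checked against cardiac progenitor markers. Of these 11 of 12 carried a peak (91.7%, beside 62.5% of all protein coding genes), with 43 peaks, among them Isl1 with 8, Tbx20 with 6 and Tbx5 and Hand1 with 5 each, and Isl1, Nkx2-5, Tbx5, Tbx20 and Kdr had a promoter peak. These are 5 of 12 (41.7%), beside 53.6% of all promoters, and the count depends on the start used. At Mef2c and Pdgfra the closest peak by deposited distance lay at 16 and 136 bp. From the 5′-most GENCODE start used here, no peak came nearer to them than 13684 and 2799 bp. Lower opening of cardiac marker promoters is therefore not read from the count. Hand2 carried none. Endoderm markers were counted because several liver genes are active in visceral endoderm. Of 14, 10 carried a peak (71.4%, beside 62.5% of all protein coding genes), with 5 peaks at Cxcr4. Cldn6, Cubn and Hnf4a were among those with none. Sox7, Epcam, Foxa2, Gata6 and Cxcr4 had a promoter peak, 5 of 14 (35.7%) beside 53.6% of all promoters. The closest Dab2 peak by deposited distance lay at -30 bp, but no peak came nearer than 12136 bp to its GENCODE start. This count too depends on the start used, and higher or lower opening of endoderm marker promoters is not read from it. Some of these genes, Gata6 and Cxcr4 among them, are also active in cardiac mesoderm, and 3 of the markers, Foxa2 and Hnf4a among them, are in the list of regulators too. The part of endodermal cells in the peaks of Alb, Apoa1, Apob and Ttr was not tested.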

How the data were processed

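ATAC-seq was performed on 2 replicates of day 5 CPCs. The study's methods name bowtie2 for alignment to mm9, samtools and Picard (version 1.136 per the submitters' processing notes) for read filtering, MACS14 for peaks per replicate, a blacklist filter and bedtools (version 2.15) for the intersection of replicates. Apart from a fixed shift at peak calling, no correction for the Tn5 cut position is described. Assignment to a start with HOMER is described for ChIP-seq peaks only. The deposited list has 6 columns without a header, namely chromosome, start, end, signed distance in bp, transcript and symbol, with no count, score or p-value, so depth is unknown and no interval or replicate error could be given. Peak width depends on the caller and the depth. A region absent from the list is not measured as closed.

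The 26429 lines held 26232 distinct intervals. Positions are 1-based on mm9. Gene models were GENCODE vM1 on NCBIM37, the same assembly. Numbers of genes with an assigned peak used RefSeq symbols, and promoter sequences were those of RefSeq on GRCm38.p6, placed on mm9 by an exact match. Analysis used Python 3.11.15, numpy 2.4.6 and scipy 1.17.1. Interval counting was tested on simulated data. The liver genes and the gene lists were chosen with earlier results of these data known. Genes named were all 10 liver genes, list genes with a promoter peak or the most peaks, preselected regulators, and the genes flanking a liver gene or carrying its nearest peak. Of the other genes, Hhex, Hand2, Mef2c, Pdgfra, Dab2 and endoderm markers without a peak were named to account for their lists. Alternatives tried were other peak filters, assignments, promoter widths and start sites. Some genes covered by this rule, and the sequence of a peak, are not reported here.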

Additional observations from a re-analysis of the deposited data

How the results depend on the processing

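Of 47 alternative values for 10 results, 41 lay within 1.5 times the value reported for counts, or within the range of the liver genes or their peaks for medians, which is wide. With peaks restricted to those wider than the median of all peaks, the liver genes with at least 1 peak fell from 4 to 2 and their peaks from 5 to 2 (Apoa1 and the farther Apob peak), and the other liver effectors with a peak from 15 to 8. The same filter moved the median distance from a liver gene start to the nearest peak from 22365 to 65338 bp and the median width of liver gene peaks from 711 to 1137 bp. When peaks were credited by overlap with the gene or 10 kb on either side, whatever their symbol, the median width rose from 711 to 1202 bp, because the promoter peaks of Tomm40l and Plrg1 entered and those of Apob and Ttr left. By this overlap, other liver effectors with a peak went from 15 to 22 of 42, and liver regulators from 16 to 22 of 24. Endoderm markers went from 10 to 11 of 14, and cardiac progenitor markers from 11 to 10 of 12. The liver genes with a peak stayed at 4. The promoter count rose from 0 to 1 with 1 kb on either side of the start (Apoa1), and from 0 to 1 with RefSeq starts (Apoa2), an alternative chosen after the data were seen. Assignment to the nearest protein coding start gave 6 liver gene peaks in place of 5, and a minimum width of 500 bp gave 4. Neither replicate was left out, since the list holds only peaks shared by both. No paired analysis was possible because both samples belong to the same group. Depth is unknown, and a region missing from the list is not thereby closed chromatin.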
